A study of Mus musculus with 8 samples.

Results

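Myc is a transcription factor that raises the transcription of genes for ribosome production, nucleotide and polyamine synthesis and nutrient uptake, and in B cells it is induced by antigen and costimulation before division. Amino acid transporters bring in the leucine and glutamine that such growth consumes, and leucine taken up by the LAT1 transporter is sensed by the kinase complex mTORC1. Their expression was examined in naive B cells from mouse spleens through 10 genes chosen by symbol, out of 23302 entries of the expression table. Myc itself was joined by 3 genes known as its targets: Odc1, which encodes ornithine decarboxylase, the first and rate-limiting enzyme of polyamine synthesis, and Ncl (nucleolin) and Nolc1, which encode nucleolar proteins of ribosome production. The other 6 encode transporters: Slc7a5 (LAT1), the light chain that carries leucine and other large neutral amino acids, Slc3a2 (CD98, the heavy chain that brings LAT1 to the cell surface), Slc7a6 (another light chain of CD98, for basic and neutral amino acids), Slc1a5 (ASCT2, an exchanger of glutamine), and Slc38a1 and Slc38a2 (SNAT1 and SNAT2, sodium-coupled importers of glutamine and alanine). All 10 were measured in every library, and all 10 passed the minimum mean of 10 normalized counts.

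The study sequenced polyadenylated RNA of splenic naive B cells from C57BL/6 mice in 8 libraries, as 4 groups of 2. These were EBi3KO mice with a tumor, EBi3KO mice without one, WT mice with a tumor and WT mice without one. EBi3KO stands for the genotype labelled B-EBi3-, in which B cells lack Ebi3, a subunit shared by the cytokines IL-35 and IL-27; the labels used here do not name the driver of the deletion, the age of the mice or the tumor model, and the series title names pancreatic cancer. Mice were taken as nontumor where the label for tumor status reads WT, and each tumor comparison depends on that reading. Whether both libraries of a group are from different animals is not stated. The p-values thus cover only the spread between libraries of the same group, which may be technical. That spread was pooled over the 4 groups and moderated across genes, so it is not that of the compared groups alone.

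Depth lay between 21291892 and 28297319 reads per library, and the 10 genes had between 423 and 20541 reads each. The B cell genes Cd79a and Ms4a1 were abundant in all 8 libraries. Ebi3 had 201 and 164 normalized counts in WT tumor and between 8.70 and 12.8 in the other 6 libraries, so without a tumor its level did not tell the genotypes apart. The WT tumor libraries stood apart from the other 6. They had 19760 and 26190 normalized counts of Xist, the RNA of the inactive X chromosome, against at most 18.3 in the others. They had 0 reads of the Y-linked Eif2s3y, Kdm5d and Uty. Ddx3y, also Y-linked, had 4.76 and 14.2 normalized counts in them and at least 2038 in the others. By these RNAs the WT tumor libraries read as female and the other 6 as male. The titles of the WT tumor libraries carry the prefix IV, not the OT of the remaining libraries. The tumor comparison in WT, the genotype comparison in tumor mice and the interaction rest on these libraries. In these comparisons tumor status or genotype cannot be told apart from these differences, sex among them. The log2 differences for tumor in EBi3KO and for genotype in nontumor mice do not rest on the WT tumor libraries. Their SEs, p-values and calls partly do, since the fit shared the spread of all 4 groups. With the WT tumor libraries left out of the fit, 3407 genes were called for tumor in EBi3KO, against 4242 with them.

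Of the 10 genes, 6 had 7 promoters in the RefSeq promoter table (GRCm38.p6, 250 bases before to 50 after a start), Slc7a6 having 2. All 300 bases of each were searched, as of all promoters. That of Slc3a2 lies inside the gene as GENCODE annotates it. The letters CACGTG, the canonical E-box that Myc binds with its partner Max, were searched on both strands and occurred in 0 of the 6 and in 7.15% of 32851 promoters, and the composite ATF4 letters TGATGNAA occurred in 0 of the 6 and in 3.97% of all. The letters CACGCG, a noncanonical E-box, occurred in 2 of the 6, Odc1 and Nolc1, and in 9.27% of all promoters. Stretches before both starts, ended at the earlier of the RefSeq and GENCODE starts, are printed because these are Myc targets whose RNA differed in its response below. Capitals mark CACGCG or its reverse complement CGCGTG, which lie 180 and 101 bases before the RefSeq start of Odc1 and 25 bases before that of Nolc1.
Odc1, chr12:17544623-17544793, plus strand, GRCm38: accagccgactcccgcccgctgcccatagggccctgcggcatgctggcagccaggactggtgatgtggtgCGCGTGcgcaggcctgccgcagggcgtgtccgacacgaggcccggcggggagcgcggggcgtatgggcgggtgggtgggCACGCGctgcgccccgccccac
Nolc1, chr19:46075597-46075846, plus strand, GRCm38: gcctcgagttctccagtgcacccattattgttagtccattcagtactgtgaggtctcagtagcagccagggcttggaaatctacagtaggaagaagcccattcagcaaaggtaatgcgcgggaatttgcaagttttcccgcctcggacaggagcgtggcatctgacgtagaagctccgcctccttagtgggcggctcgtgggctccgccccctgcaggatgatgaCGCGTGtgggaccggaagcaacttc
These matches describe letters only. No binding was measured, and the absence of a match says only that the letters are not in this window.

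Myc (mouse chromosome 15, 61985391 to 61990374, plus strand, GRCm38) moved in opposite directions with tumor in the 2 genotypes. It had 5444 and 5550 normalized counts in EBi3KO tumor, 4383 and 3010 in EBi3KO nontumor, 2257 and 2290 in WT tumor and 4645 and 3863 in WT nontumor. Both EBi3KO tumor libraries lay above all others and both WT tumor libraries below all others, while the nontumor groups overlapped. In EBi3KO mice Myc was 1.51-fold higher with tumor (log2 difference 0.60, SE 0.158, adjusted p = 0.024, limma with Benjamini-Hochberg adjustment over 13011 genes). In WT mice it was 1.86-fold lower with tumor (-0.90, SE 0.158, adjusted p = 0.000679). The interaction (tumor difference in EBi3KO less the tumor difference in WT) was 1.495 (SE 0.223, adjusted p = 0.000976), and among tumor mice Myc was 2.42-fold higher in EBi3KO than in WT (1.27, adjusted p = 0.000222). Without a tumor the genotypes differed by -0.22, with a 95% interval of -0.58 to 0.14 (adjusted p = 0.63). The rise in EBi3KO was the least firm of these values. It rested partly on EBi3KO nontumor replicate 2, without which it was 0.33 (adjusted p = 0.105), and it also missed the threshold without either EBi3KO tumor library (0.61 and 0.58, adjusted p = 0.115 and 0.123). In all its call was lost in 6 of 22 alternatives, and with both WT tumor libraries left out of the fit it was 0.60 (adjusted p = 0.0377).

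**Figure D1:**
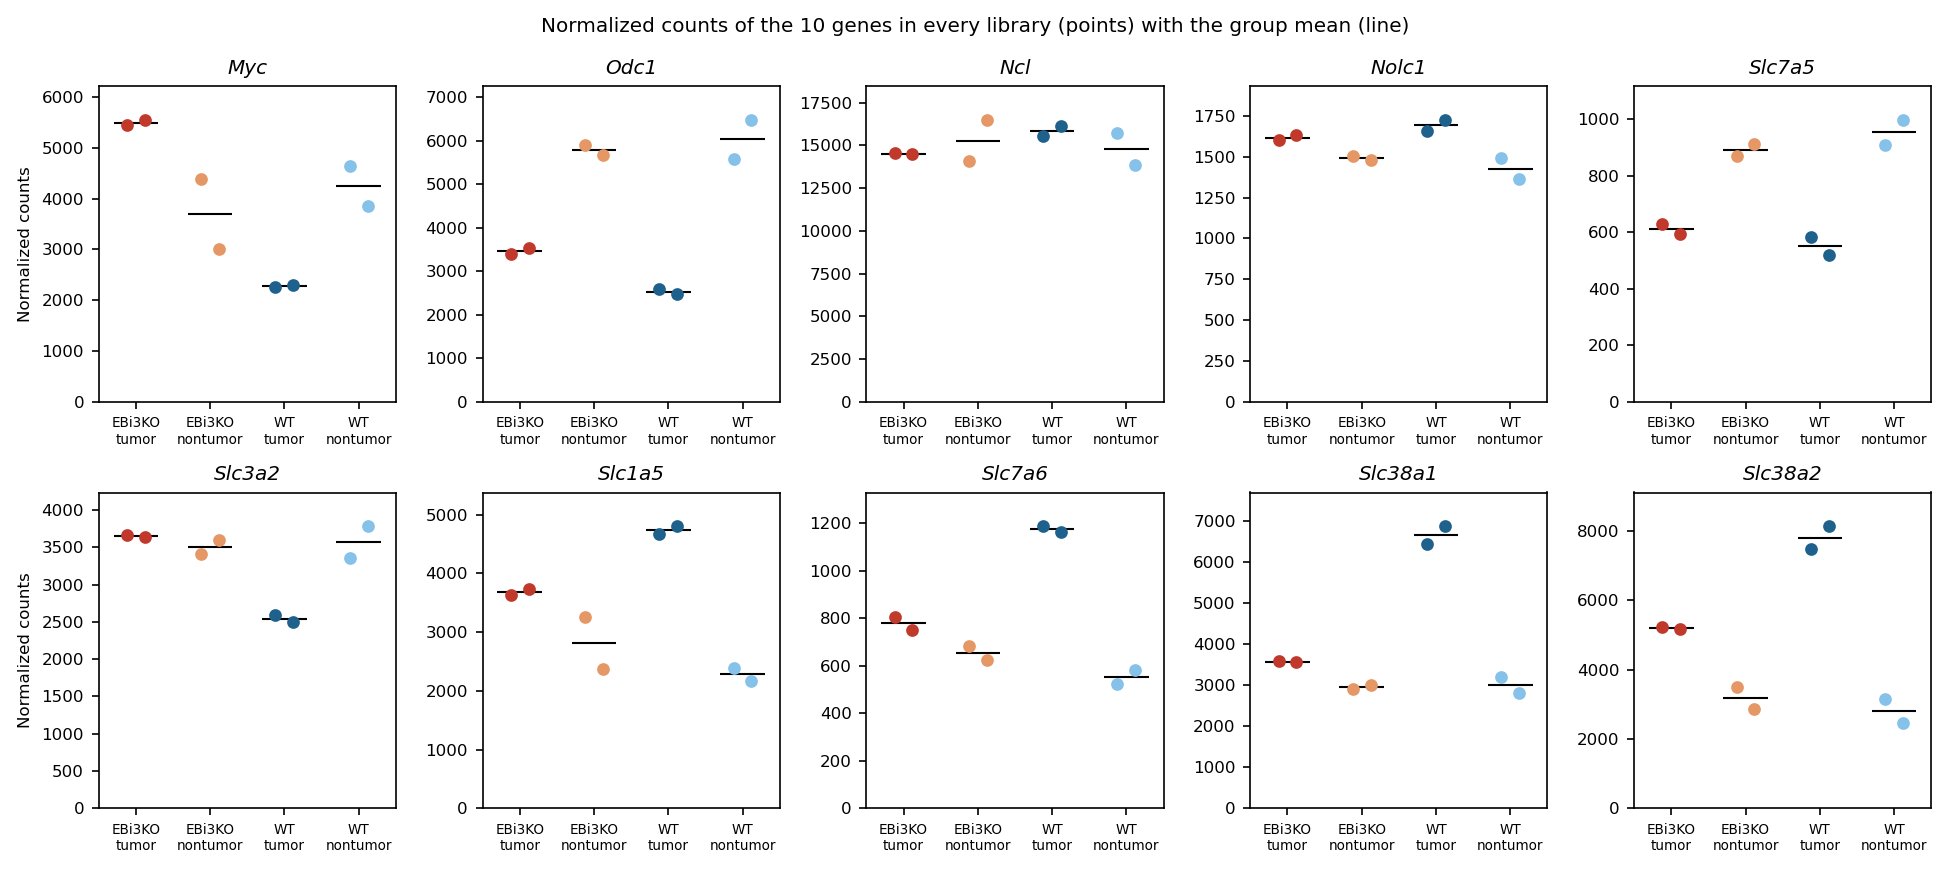
Normalized counts (vertical axes, each from 0) of the 10 genes in the 4 groups, with 1 point per library and a line at the group mean. Myc is highest in EBi3KO tumor (5444 and 5550) and lowest in WT tumor (2257 and 2290), Odc1 and Slc7a5 are lower in both tumor groups than in both nontumor groups, and Slc1a5, Slc7a6, Slc38a1 and Slc38a2 are highest in WT tumor.

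Of the known Myc targets, Odc1 shared the direction of Myc in every called comparison except tumor in EBi3KO. No call on Ncl or Nolc1 went in the direction of Myc at the scaling used throughout. Odc1 (chromosome 12, 17544794 to 17551505, plus strand) had 3392 and 3535 normalized counts in EBi3KO tumor, against 5899 and 5668 in EBi3KO nontumor. In WT mice it had 2588 and 2470 with tumor, against 5593 and 6485 without. Each tumor library was thus below each nontumor library, in the genotype where Myc was higher with tumor as well as in the one where it was lower. Odc1 fell 1.67-fold with tumor in EBi3KO (log2 difference -0.74, SE 0.0837, adjusted p = 0.00069) and 2.38-fold in WT (-1.25, SE 0.0837, adjusted p = 2.88e-06). Its fall was smaller in EBi3KO (interaction 0.51, SE 0.118, adjusted p = 0.0069), and among tumor mice it was 1.37-fold higher in EBi3KO than in WT (0.45, adjusted p = 0.00171). With the trend of each library on transcript length and GC content removed these were 0.31 and 0.29, both past the threshold. Both falls kept their side of the threshold in every alternative run, 22 for EBi3KO and 23 for WT.

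Nucleolin was abundant, and its small differences depended on the scaling. Ncl (chromosome 1, 86344719 to 86359400, minus strand) had 14536 and 14483 normalized counts in EBi3KO tumor, 14060 and 16489 in EBi3KO nontumor, 15533 and 16155 in WT tumor and 15731 and 13829 in WT nontumor. The libraries of each tumor group lay within or near the range of its nontumor group, and no comparison passed the threshold at the scaling used throughout. The tumor difference was -0.07 in EBi3KO (95% interval -0.29 to 0.15) and 0.10 in WT (-0.12 to 0.32). With quantile scaling Ncl was called higher with tumor in WT (0.48, adjusted p = 0.00121), lower in EBi3KO than in WT among tumor mice (-0.28, adjusted p = 0.0272) and negative in the interaction (-0.37, adjusted p = 0.0432). The annotation places the small RNAs Snora75, mmu-mir-3535 and Gm24148 over its exons and Snord82 elsewhere in the gene, and how the counting treated them is not given in the sources used here. Nolc1 (chromosome 19, 46075863 to 46085530, plus strand) had 1601 and 1632 normalized counts in EBi3KO tumor and 1501 and 1481 in EBi3KO nontumor, against 1658 and 1726 in WT tumor and 1491 and 1361 in WT nontumor. Its tumor groups lay above its nontumor groups by small margins. In WT it was 1.19-fold higher with tumor (0.25, SE 0.0747, adjusted p = 0.0132), and in EBi3KO the difference was 0.12 (adjusted p = 0.247). The WT call on Nolc1 was lost in 5 of 23 alternatives, among them the title number as a replicate block (adjusted p = 0.158), without WT tumor replicate 2 (0.0849) and without WT nontumor replicate 2 (0.0633).

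The direction of both nucleolar genes in WT depended on how gene length was treated, that of Nolc1 on coding length alone. Across 12867 genes, the log2 difference with tumor in WT had a Spearman correlation of 0.448 with transcript length, and that in EBi3KO one of 0.259, given here as descriptions. For EBi3KO against WT it was -0.516 in tumor mice, the strongest, and 0.285 in nontumor mice. With the trend of each library on transcript length and GC content removed, Ncl, whose annotated transcript has 8202 bases, was -0.98 in WT and -0.31 in EBi3KO (adjusted p = 0.0268), both past the threshold, so in WT it was called with opposite signs under quantile scaling and this removal. Nolc1 stayed at 0.19 in WT there and past the threshold (adjusted p = 0.0282). With coding length in its place, for which Ncl has 2121 bases, Ncl was -0.56 in WT and past the threshold, and Nolc1 was -0.05 (adjusted p = 0.457). The part of transcript length in these results was not tested further.

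The LAT1 light chain and its CD98 heavy chain parted with tumor in EBi3KO. Slc7a5 (chromosome 8, 121881150 to 121907694, minus strand) had 632 and 594 normalized counts in EBi3KO tumor, against 870 and 913 in EBi3KO nontumor. In WT it had 582 and 521 with tumor, against 910 and 999 without. As with Odc1, no tumor library reached any nontumor library. Slc7a5 was 1.45-fold lower with tumor in EBi3KO (log2 difference -0.54, SE 0.095, adjusted p = 0.00562) and 1.73-fold lower in WT (-0.79, SE 0.095, adjusted p = 6.54e-05). The interaction was 0.25, with a 95% interval of -0.06 to 0.56 (adjusted p = 0.145), so a difference between genotypes in this fall was not shown. The fall in EBi3KO missed the threshold without EBi3KO tumor replicate 2 (-0.50, adjusted p = 0.0701) and with the EBi3KO tumor libraries averaged as 1 (adjusted p = 0.0572). A gene model on the opposite strand, Gm20388, spans the locus without sharing its exons.

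Slc3a2 (chromosome 19, 8706882 to 8723369, minus strand) had 3660 and 3643 normalized counts in EBi3KO tumor and 3414 and 3597 in EBi3KO nontumor, against 2588 and 2496 in WT tumor and 3357 and 3782 in WT nontumor. Only the WT tumor libraries were below the rest. The heavy chain was 1.40-fold lower with tumor in WT (-0.49, SE 0.0772, adjusted p = 0.000361). In EBi3KO the difference was 0.06, with a 95% interval of -0.12 to 0.24 (adjusted p = 0.572). The interaction was 0.55 (SE 0.109, adjusted p = 0.00355). The ratio of Slc3a2 to Slc7a5 normalized counts was 5.795 and 6.13 in EBi3KO tumor, 3.92 and 3.94 in EBi3KO nontumor, 4.45 and 4.80 in WT tumor and 3.69 and 3.79 in WT nontumor. It was higher in each tumor group than in its nontumor group, and highest in EBi3KO tumor. This ratio is not corrected for length and does not give the number of chains.

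Slc7a6, the other light chain of CD98, went the opposite way to Slc7a5. Slc7a6 (chromosome 8, 106168857 to 106198706, plus strand) had 805 and 752 normalized counts in EBi3KO tumor and 684 and 624 in EBi3KO nontumor, against 1187 and 1164 in WT tumor and 523 and 580 in WT nontumor. The tumor libraries lay above the nontumor libraries in both genotypes, by a wide margin in WT. In WT it was 2.13-fold higher with tumor (1.09, SE 0.0925, adjusted p = 9.02e-06). In EBi3KO the difference was 0.25 (95% interval 0.04 to 0.46) and missed the threshold (adjusted p = 0.0649). The interaction was -0.84 (SE 0.131, adjusted p = 0.00117).

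The 3 glutamine transporters were higher with tumor in both genotypes, and more so in WT. Slc1a5 (chromosome 7, 16781340 to 16798274, plus strand) had 3638 and 3736 normalized counts in EBi3KO tumor and 3253 and 2374 in EBi3KO nontumor, against 4674 and 4802 in WT tumor and 2390 and 2170 in WT nontumor. It was 1.33-fold higher with tumor in EBi3KO (0.41, SE 0.13, adjusted p = 0.0428) and 2.08-fold higher in WT (1.06, SE 0.13, adjusted p = 7.76e-05). The EBi3KO nontumor libraries were far apart. Without EBi3KO nontumor replicate 2 the EBi3KO difference was 0.18 (adjusted p = 0.189), and its call was lost in 10 of 22 alternatives, also with the WT tumor libraries left out of the fit (0.41, adjusted p = 0.0641).

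Slc38a1 (chromosome 15, 96571418 to 96642913, minus strand) had 3594 and 3567 normalized counts in EBi3KO tumor and 2908 and 3014 in EBi3KO nontumor, against 6437 and 6880 in WT tumor and 3194 and 2815 in WT nontumor. The tumor libraries lay above the nontumor libraries in both genotypes. It was 1.21-fold higher with tumor in EBi3KO (0.27, SE 0.0796, adjusted p = 0.0321) and 2.22-fold higher in WT (1.15, SE 0.0796, adjusted p = 3.39e-06). Its annotated transcript has 7266 bases, and removal of the transcript length and GC trend left 0.10 in EBi3KO (adjusted p = 0.182) and 0.25 in WT (adjusted p = 0.00291). With coding length in place of transcript length these were 0.27 and 1.002, both past the threshold. The EBi3KO call was lost in 7 of 22 alternatives, among them the omission of any of the 4 EBi3KO libraries.

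Slc38a2 (chromosome 15, 96687392 to 96699730, minus strand), which lies on the same chromosome and strand as Slc38a1, changed the most of the 6 transporters in EBi3KO, and in WT before any length correction. It had 5222 and 5155 normalized counts in EBi3KO tumor and 3483 and 2852 in EBi3KO nontumor, against 7476 and 8127 in WT tumor and 3153 and 2449 in WT nontumor. All 4 tumor libraries lay above all 4 nontumor libraries. It was 1.65-fold higher with tumor in EBi3KO (0.72, SE 0.131, adjusted p = 0.00652) and 2.80-fold higher in WT (1.49, SE 0.131, adjusted p = 1.07e-05). In WT it was 0.997 with the transcript length and GC trend removed and 1.138 with coding length, against 1.20 and 1.143 for Slc1a5. Without EBi3KO tumor replicate 1, EBi3KO tumor replicate 2 or EBi3KO nontumor replicate 2 in turn, the EBi3KO difference was 0.71, 0.73 and 0.57 and just missed the threshold (adjusted p = 0.0572, 0.055 and 0.0515), as with the EBi3KO tumor libraries averaged (0.0572). For the interaction, Slc1a5 had -0.65 (adjusted p = 0.0171), Slc38a1 -0.88 (0.000542) and Slc38a2 -0.77 (0.00819). With the transcript length and GC trend removed, the interaction of Slc38a1 was -0.15 and that of Slc38a2 -0.37, and neither passed the threshold. The interaction call on Slc1a5 was lost in 4 of 20 alternatives, among them without EBi3KO tumor replicate 1 and without WT tumor replicate 2 (-0.63 in both, adjusted p = 0.0588 and 0.0581).

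**Figure D2:**
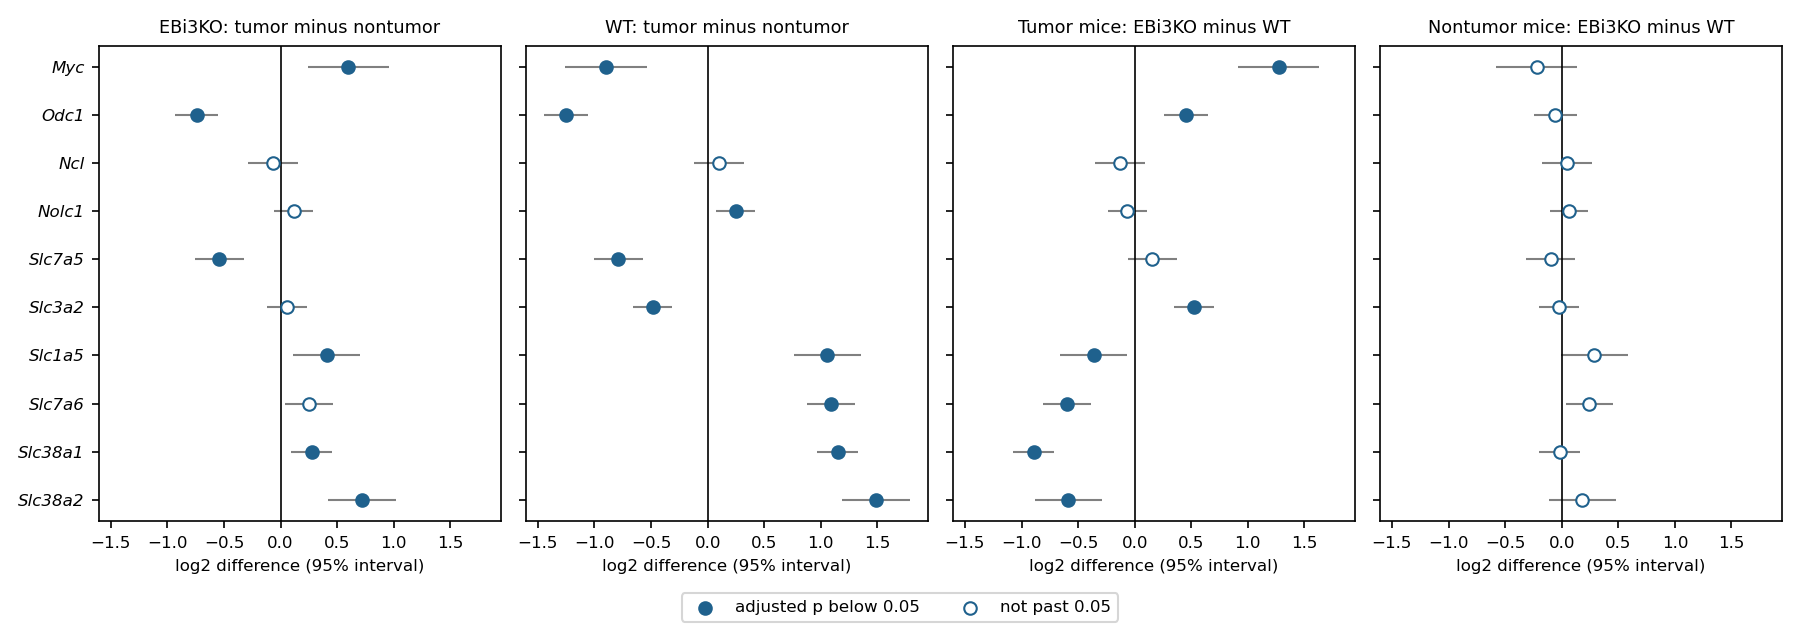
Log2 differences (horizontal axes) of the 10 genes in 4 comparisons, with 95% intervals from limma. Filled points have an adjusted p below 0.05: 6 genes for tumor in EBi3KO, 9 for tumor in WT, 7 for genotype in tumor mice and 0 for genotype in nontumor mice.

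Counted together, 4 of the 10 genes were called higher and 2 lower with tumor in EBi3KO, where 14.1% and 18.5% of all 13011 tested genes were called higher and lower. In WT, 5 were called higher and 4 lower, against 39.6% and 40.1% of all genes. With so many genes called in WT, 9 of 10 is near the share of all genes called there. The WT calls on all of these but Nolc1 held in each of 23 alternatives. Directions were shared for 5 genes called in both genotypes, Odc1 and Slc7a5 lower and Slc1a5, Slc38a1 and Slc38a2 higher, and Myc was the only gene called in both with opposite directions. The EBi3KO count depended on single libraries. It was 2 without EBi3KO tumor replicate 1, 1 without EBi3KO tumor replicate 2 and 2 without EBi3KO nontumor replicate 2, and it was 5 with the WT tumor libraries left out.

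Without a tumor, EBi3KO and WT B cells did not differ detectably in any of the 10 genes. By limma 0 of 10 were called higher or lower (0% of all genes in each direction), as by edgeR and DESeq2, and 1 of 10 had an unadjusted p below 0.05, as did 1049 of 13011 genes. Over all genes edgeR called 0 and DESeq2 21. That gene was Slc7a6, with 684 and 624 normalized counts in EBi3KO against 523 and 580 in WT (0.25, 95% interval 0.03 to 0.46, adjusted p = 0.604). The intervals of the other genes allow differences of up to -0.58 for Myc and 0.58 for Slc1a5. Differences inside each gene's interval were not excluded with 2 libraries a group.

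With a tumor, 3 of the 10 were higher in EBi3KO than in WT (31.9% of all genes) and 4 lower (28.6%). The higher genes were Myc, Odc1 and Slc3a2 (log2 differences of 1.27, 0.45 and 0.52). The lower ones were Slc38a1 (-0.89, adjusted p = 5.4e-05), Slc7a6 (-0.60, adjusted p = 0.000699), Slc38a2 (-0.59, adjusted p = 0.00446) and Slc1a5 (-0.36, adjusted p = 0.0388). The call on Slc1a5 was lost in 9 of 21 alternatives, among them the omission of any 1 of the 4 tumor libraries (adjusted p = 0.1 to 0.146), and that on Slc38a2 with the transcript length and GC trend removed (-0.21), under which Slc38a1 was -0.26 and past the threshold. Slc7a5 differed by 0.15 (95% interval -0.06 to 0.37), Ncl by -0.13 and Nolc1 by -0.07, none past the threshold. In the interaction, 3 genes were called higher (27.5% of all genes) and 4 lower (25.4%), and these were the same 7 genes with the same signs. The tumor, genotype and interaction comparisons share libraries and are not independent.

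Levels can be compared between the genes only per length. Per kilobase of annotated transcript, the mean in EBi3KO tumor ran from Myc (2351 normalized counts per kilobase) through Ncl (1769) and Odc1 (1569) down to Slc7a6 (208) and Slc7a5 (174). In EBi3KO nontumor Odc1 (2619) and Ncl (1862) preceded Myc (1581 ± 415), whose libraries overlapped those of Ncl. In WT tumor Ncl (1932), Slc1a5 (1714) and Slc38a2 (1674) led and Myc (972) had order 5 of 10, and the libraries of Slc1a5 and Slc38a2 overlapped. In WT nontumor Odc1 (2735) stood above Myc (1819 ± 236) and Ncl (1802 ± 164), which overlapped each other (SD, n = 2 each). Slc7a5 and Slc7a6 were the lowest of the 10 in all 4 groups. Per kilobase of coding sequence Ncl was first in all 4 groups (6841 in EBi3KO tumor, 7202 in EBi3KO nontumor, 7470 in WT tumor and 6968 in WT nontumor), so the place of Ncl in this order depends on the length used.

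Over the 8 libraries the log2 values of Odc1 and Slc7a5 had a Pearson correlation of 0.976, those of Odc1 and Slc38a2 one of -0.984, and those of Slc1a5 and Slc38a2 one of 0.975. Myc correlated with Odc1 at 0.427 and with Slc7a5 at 0.281. These are descriptions over libraries that share 4 group means. Among 10322 genes with a mean of at least 50, those most like Myc were Il2rb (0.987), D2Wsu81e (0.981), Thy1 (0.980), Klrd1 (0.972) and Cd3g (0.972). Il2rb encodes a chain of the interleukin 2 and 15 receptors, Klrd1 a receptor chain of NK cells, Cd3g a chain of the T cell receptor complex, and Thy1 a surface protein of T cells. Il2rb had 386 and 389 normalized counts in EBi3KO tumor, 316 and 219 in EBi3KO nontumor, 168 and 151 in WT tumor and 290 and 259 in WT nontumor. The summed share of reads on 8 NK cell markers was 0.0107 to 0.0109% in EBi3KO tumor, 0.00682 to 0.00946% in EBi3KO nontumor, 0.00288 to 0.00346% in WT tumor and 0.00685 to 0.00866% in WT nontumor. That on 11 T cell markers was 0.00809 to 0.00841% in EBi3KO tumor, 0.00584 to 0.00702% in EBi3KO nontumor, 0.0058 to 0.00593% in WT tumor and 0.0063 to 0.00642% in WT nontumor. No marker of either list was at 0 in a whole group. Of the 8 NK markers, 1 rose and 0 fell with tumor in EBi3KO and 0 rose and 8 fell in WT, and of the 11 T cell markers, 1 rose and 1 fell in EBi3KO and 0 rose and 8 fell in WT. Of all genes, 14.1% rose and 18.5% fell with tumor in EBi3KO, and 39.6% rose and 40.1% fell in WT. With the WT tumor libraries left out, 0 of the 8 NK markers passed in EBi3KO. The share on 7 plasma cell markers was 0.231% in both EBi3KO tumor libraries and 0.112 to 0.123% in EBi3KO nontumor, against 0.046 to 0.0532% in WT tumor and 0.142 to 0.155% in WT nontumor, and none was at 0 in a whole group. Of these 7, 6 rose and 1 fell with tumor in EBi3KO, and 1 rose and 4 fell in WT. The 6 rises became 1 without either EBi3KO tumor library and 3 without EBi3KO nontumor replicate 2. The summed NK and plasma cell shares were highest in EBi3KO tumor and lowest in WT tumor, as was Myc. WT tumor also had the lowest granulocyte (0.0014 to 0.00164%), dendritic cell (0.00559 to 0.00639%) and platelet shares (0.0096 to 0.0108%). The erythroid and macrophage shares, given below, were lowest there too. The share on 10 B cell markers was 2.24 to 2.34% in WT tumor, against 2.08 to 2.13% in WT nontumor. The part of any of these cells in the Myc values was not tested. In bulk RNA, fewer cells of a type and less RNA per cell cannot be told apart.

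The genes most like Slc7a5 were Rars (0.997), which encodes arginyl-tRNA synthetase, Prim2 (0.996), a DNA primase subunit, Atic (0.995), an enzyme of purine synthesis, Spc25 (0.995), a kinetochore protein, and BC052040 (0.995). Spc25 had 183 and 146 normalized counts in EBi3KO tumor and 387 and 422 in EBi3KO nontumor, against 152 and 127 in WT tumor and 428 and 471 in WT nontumor. Genes of the cell cycle were lower with tumor in both genotypes. Their summed share of reads, over 20 genes, was 0.0957 to 0.0961% in EBi3KO tumor and 0.190 to 0.191% in EBi3KO nontumor, against 0.0932 to 0.0955% in WT tumor and 0.167 to 0.193% in WT nontumor. With tumor 20 of 20 fell in EBi3KO, and 18 fell and 1 rose in WT. Of all genes, 18.5% fell in EBi3KO, and 40.1% fell and 39.6% rose in WT. The part of dividing cells in the lower Slc7a5 and Odc1 was not tested.

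**Figure D3:**
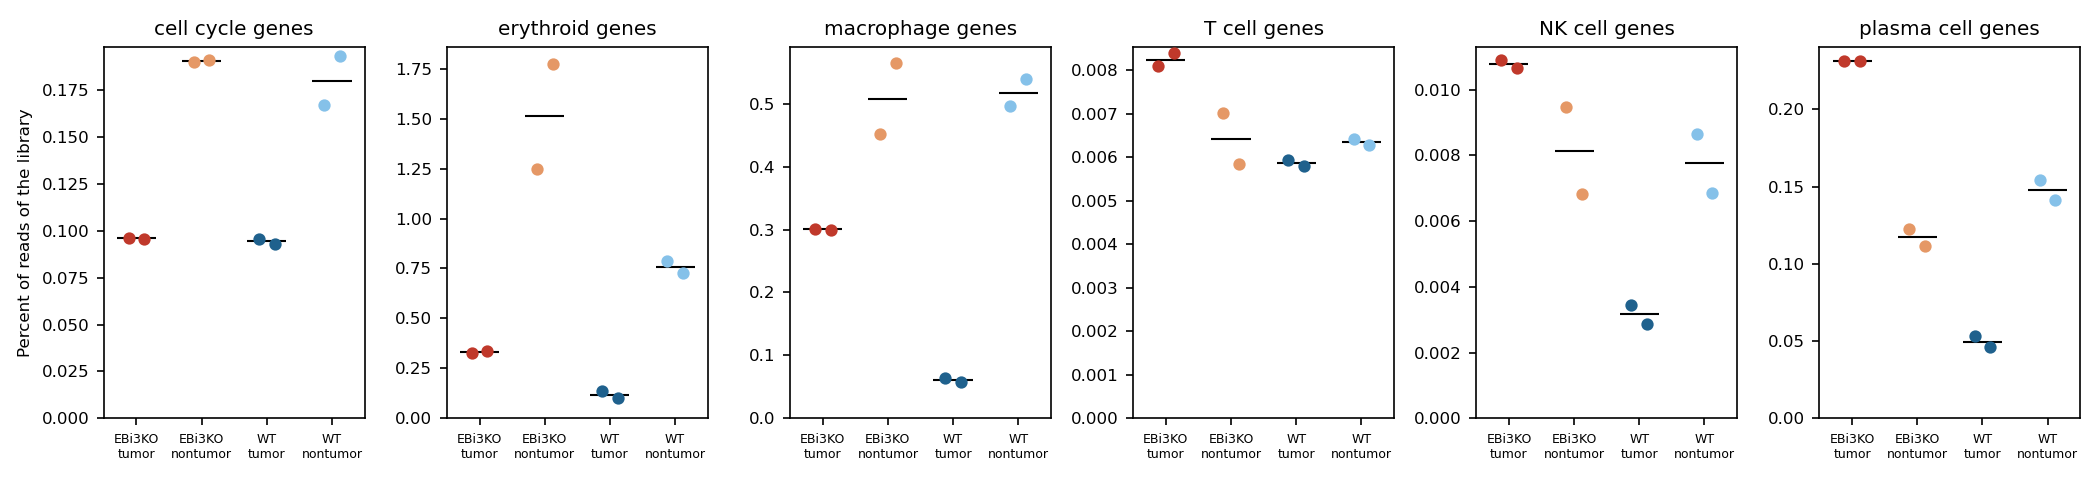
Summed share of each library's reads (percent, vertical axes from 0) on 6 marker lists in the 4 groups, with 1 point per library and a line at the group mean. Cell cycle and erythroid genes are lower in both tumor groups, and the NK and plasma cell shares are highest in EBi3KO tumor (0.0107 to 0.0109% and 0.231%) and lowest in WT tumor (0.00288 to 0.00346% and 0.046 to 0.0532%). The erythroid and macrophage shares are also lowest in WT tumor.

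Other genes of these pathways were examined as 8 lists without the 10 genes above. Over all tested genes the median log2 difference with tumor was -0.01 in EBi3KO and 0.01 in WT. The counts of each list are to be read beside the shares of all genes called. These were 14.1% higher and 18.5% lower with tumor in EBi3KO, and 39.6% higher and 40.1% lower in WT. Of the metabolic and growth targets of Myc (30 genes), most were called lower. With tumor in EBi3KO 23 fell and 0 rose (median -0.39), and in WT 25 fell and 3 rose (-0.84). Hspe1 and Hspd1, the paired chaperonins of mitochondria, fell in EBi3KO (log2 differences -0.59 and -0.47, adjusted p = 0.0013 and 0.00174). Hspe1 had 5018 and 4967 normalized counts in EBi3KO tumor, against 7523 and 7470 in EBi3KO nontumor, and 2571 and 2270 in WT tumor, against 8394 and 8116 in WT nontumor. Nme2, a nucleoside diphosphate kinase, averaged 3213 ± 524 in WT tumor and 12858 ± 86.9 in WT nontumor (SD, n = 2 each, -2.01, adjusted p = 1.02e-06). Tfrc, the transferrin receptor, fell in EBi3KO (-1.32, adjusted p = 2.56e-05), and it is also one of the 14 erythroid markers, all of which fell with tumor in both genotypes. With the coding length and GC trend removed, Hspe1 was -0.30 in EBi3KO and Nme2 -0.93 in WT, both past the threshold. These falls in EBi3KO stand beside a higher level of Myc RNA with tumor in the same libraries. Among tumor mice, 17 of the 30 genes were higher in EBi3KO than in WT and 3 lower (median 0.385), and Myc was higher there too. Of all genes, 31.9% were higher and 28.6% lower in that comparison. In the interaction 17 were positive and 3 negative (0.485), as Myc was positive. Both comparisons rest on the WT tumor libraries. The EBi3KO count of falls was 5 without EBi3KO tumor replicate 1, 5 without EBi3KO tumor replicate 2 and 7 without EBi3KO nontumor replicate 2 (medians -0.37, -0.40 and -0.34), and 20 with the WT tumor libraries left out.

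Of 39 ribosome biogenesis genes, 4 rose and 6 fell with tumor in EBi3KO (median -0.05), and 15 rose and 18 fell in WT (-0.07). The WT counts lay near the shares of all genes called (39.6% and 40.1%), and the EBi3KO counts below theirs (14.1% and 18.5%). In EBi3KO Gnl3 (nucleostemin) was higher by 0.47 (adjusted p = 0.0145) and Utp20, of the small-subunit processome, by 0.45 (0.0174), while Fbl, the methyltransferase fibrillarin, was lower by a log2 difference of -0.42 (0.0176). In WT Nop10, a subunit of the H/ACA snoRNPs, fell (-1.51, adjusted p = 3.35e-06) and Tcof1, a nucleolar partner of RNA polymerase I, rose (1.18, adjusted p = 4.6e-06). Utp20 rose by 1.36 in WT. With the coding length and GC trend removed it was called lower in WT (-0.19), Nop10 was -0.52 and Tcof1 0.64 there, and the WT split of this list was 4 higher and 26 lower. With either length trend removed the EBi3KO values of Utp20 were 0.22 and 0.06, that of Fbl with the transcript length trend removed was -0.20, and of these only the 0.06 was not past the threshold. The EBi3KO calls were 0 in both directions without either EBi3KO tumor library or EBi3KO nontumor replicate 2.

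Among 15 genes of polyamine metabolism besides Odc1, 0 rose and 8 fell with tumor in EBi3KO (median -0.35), and 3 rose and 11 fell in WT (-0.74). Smox, spermine oxidase, had 197 and 229 normalized counts in EBi3KO tumor, against 802 and 714 in EBi3KO nontumor, and 77.0 and 55.8 in WT tumor, against 585 and 624 in WT nontumor. It fell in EBi3KO (-1.83, adjusted p = 0.000202) and in WT (-3.18, adjusted p = 8.62e-07). Azin1, an inhibitor of antizyme, and the lysosomal polyamine exporter Atp13a2 fell in EBi3KO (-0.44 and -0.42, adjusted p = 0.00463 and 0.009). Paox and Sat1, of polyamine breakdown, fell in WT (-1.91 and -1.47, adjusted p = 1.12e-06 and 3.14e-06), and Sat1 was -0.72 with the transcript length and GC trend removed. The EBi3KO falls numbered 1, 1 and 2 without EBi3KO tumor replicate 1, EBi3KO tumor replicate 2 and EBi3KO nontumor replicate 2.

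Of 34 other amino acid transporters, 25 passed the minimum mean. With tumor 2 rose and 11 fell in EBi3KO (median -0.49), and 6 rose and 13 fell in WT (-0.87). With the transcript length and GC trend removed the WT split was 3 higher and 15 lower (median -1.51). The EBi3KO falls numbered 7 without EBi3KO tumor replicate 2. Slc38a5 (SNAT5), another importer of glutamine, had 43.5 and 44.9 normalized counts in EBi3KO tumor, against 764 and 651 in EBi3KO nontumor, and 6.35 and 3.15 in WT tumor, against 586 and 653 in WT nontumor (-3.97 and -6.81, adjusted p = 3.2e-05 and 2.08e-07). It moved against its relatives Slc38a1 and Slc38a2. All 14 erythroid markers fell with tumor as well, with medians of -2.81 in EBi3KO and -3.92 in WT. Of all genes, 18.5% and 40.1% fell there. Slc43a1 (LAT3) and Slc6a9 (the glycine transporter GlyT1) fell in EBi3KO (-2.01 and -3.25, adjusted p = 3.56e-05 and 0.000177). Slc7a8 (LAT2) and the aromatic amino acid transporter Slc16a10 fell in WT (-3.30 and -1.68, adjusted p = 5.2e-07 and 1.29e-06). Slc6a9 and Slc43a1 are also known from red cell precursors, and the share of reads on 14 erythroid genes was 0.329 to 0.338% in EBi3KO tumor and 1.25 to 1.78% in EBi3KO nontumor, against 0.1 to 0.135% in WT tumor and 0.729 to 0.785% in WT nontumor. The share on 15 monocyte and macrophage genes was 0.299 to 0.301% in EBi3KO tumor and 0.451 to 0.565% in EBi3KO nontumor, against 0.0572 to 0.0643% in WT tumor and 0.496 to 0.540% in WT nontumor. None of these markers was at 0 in a whole group, and the part of other cells in these falls was not tested.

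**Figure D4:**
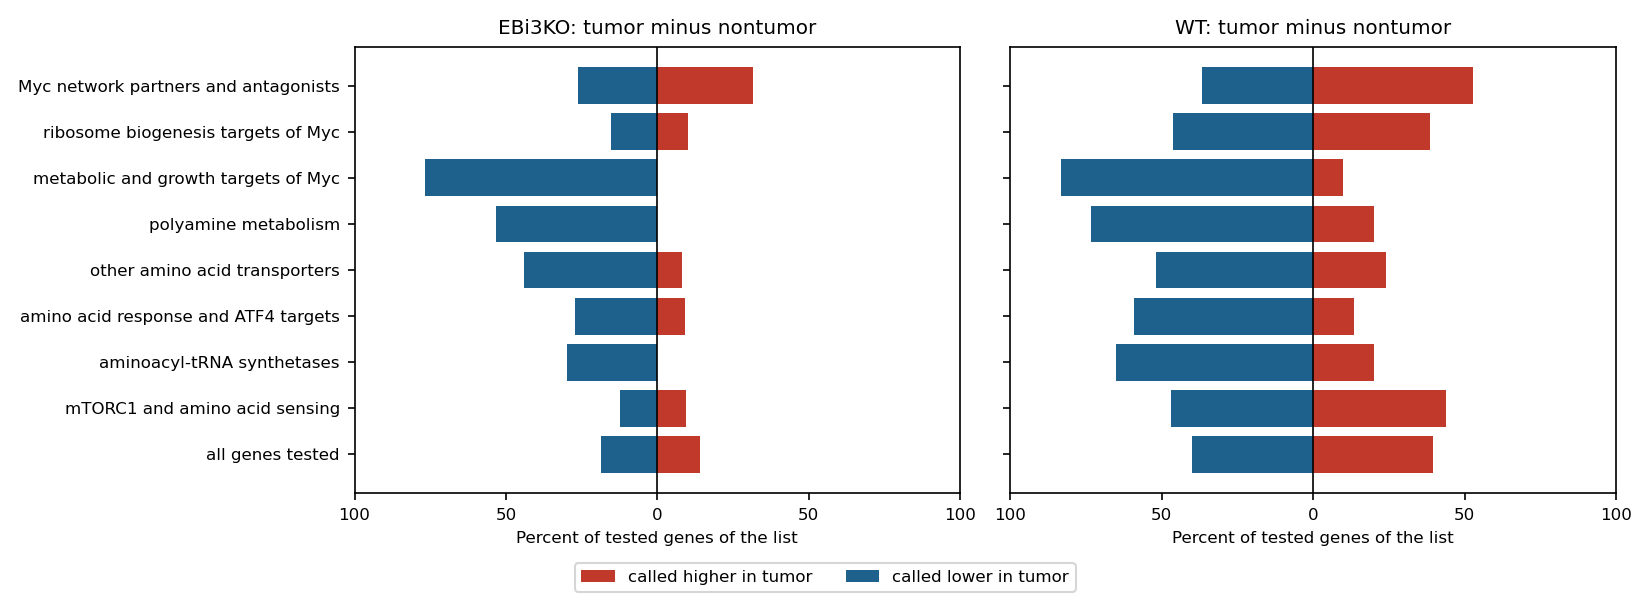
Percent of each list's tested genes called higher (right, red) or lower (left, blue) with tumor in EBi3KO and in WT, beside all 13011 genes tested. The metabolic and growth targets of Myc have 23 of 30 genes lower in EBi3KO and 25 of 30 lower in WT, against 18.5% and 40.1% of all genes.

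The amino acid response, run by the transcription factor ATF4 when amino acids are short, was read from 22 tested genes. With tumor 2 rose and 6 fell in EBi3KO (median -0.10), and 3 rose and 13 fell in WT (-0.71). Asns, asparagine synthetase and a standard ATF4 target, had 168 and 165 normalized counts in EBi3KO tumor, against 962 and 940 in EBi3KO nontumor, and 45.3 and 43.3 in WT tumor, against 931 and 1314 in WT nontumor. It fell in EBi3KO (-2.51, SE 0.156, adjusted p = 2.89e-05) and in WT (-4.61, SE 0.156, adjusted p = 1.34e-07), and its falls kept their side of the threshold in every alternative run. Eif4ebp1, the repressor of translation that mTORC1 inactivates, fell in EBi3KO (-0.70, adjusted p = 0.00685) and in WT (-1.71, adjusted p = 5.06e-06), where it was -0.84 with the coding length and GC trend removed. Slc7a5, Slc3a2 and Slc38a2 are known ATF4 targets too, and of these Slc38a2 moved up with tumor in both genotypes. With the transcript and the coding length trend removed in turn, the WT split was 5 higher and 10 lower (median -0.37) and 6 higher and 8 lower (-0.34). The EBi3KO median was 0.05 with the coding length and GC trend removed, and 1 gene fell and 0 rose without either EBi3KO tumor library or EBi3KO nontumor replicate 2.

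Of the 20 aminoacyl-tRNA synthetases, which charge tRNAs with amino acids, 0 rose and 6 fell with tumor in EBi3KO (median -0.22), and 4 rose and 13 fell in WT (-0.41). Hars (histidyl-tRNA synthetase) had 1567 and 1621 normalized counts in EBi3KO tumor, against 2515 and 2535 in EBi3KO nontumor, and 1269 and 1254 in WT tumor, against 2445 and 2752 in WT nontumor. The falls were -0.66 (adjusted p = 0.000757) and -1.04 (adjusted p = 4.62e-06). Aars (alanine) and Yars (tyrosine) fell in EBi3KO (-0.45 and -0.36, adjusted p = 0.00273 and 0.0233). The EBi3KO falls numbered 2 without either EBi3KO tumor library or EBi3KO nontumor replicate 2, and 3 with the WT tumor libraries left out. They numbered 10 of 20 with the transcript length trend removed, 12 of 17 with the coding length trend removed, and 10 of 20 without either WT nontumor library. In WT the coding length trend removed gave 1 rise and 15 falls of 17 (median -0.71).

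For mTORC1 and amino acid sensing, 3 of 32 genes rose and 4 fell with tumor in EBi3KO (median -0.04), and 14 rose and 15 fell in WT (-0.13, but 0.12 with the transcript length and GC trend removed). Here too the WT counts lay near the shares of all genes called (39.6% and 40.1%), and the EBi3KO counts below theirs (14.1% and 18.5%). Mtor, the kinase itself, was 1.41-fold higher in EBi3KO (0.50, adjusted p = 0.0137) and 2.91-fold higher in WT (1.54, adjusted p = 4.02e-06). With the coding length and GC trend removed it was 0.19 in EBi3KO, not past the threshold, and 0.38 in WT. Of 19 partners and antagonists of Myc, 6 rose and 5 fell in EBi3KO (median 0.07), and 10 rose and 7 fell in WT (0.35). Fbxw7, the ubiquitin ligase subunit that marks Myc protein for destruction, rose by 0.67 in EBi3KO (adjusted p = 0.00993), Mxd4, an antagonist of Myc, had -0.42 (0.0119), and Mlxip, which pairs with Mlx, rose by 0.62 (0.0191). In WT Mlxip rose by 2.01 (adjusted p = 5.1e-06), Bptf, a chromatin remodeler that binds Myc, by 2.75 (2.28e-06), and Mycl1, the L-Myc gene, fell (-2.92, adjusted p = 1.33e-06). Under the same removal Mxd4 was -0.25 in EBi3KO, not past the threshold, and Bptf 1.28 in WT, and with the transcript length trend removed Mlxip was 1.26 in WT. The EBi3KO calls of both lists were 0 in each direction without either EBi3KO tumor library or EBi3KO nontumor replicate 2.

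Without a tumor, 0 genes of these 8 lists were called between EBi3KO and WT. Their medians lay between -0.11, for the metabolic and growth targets, and 0.12, for the partners and antagonists of Myc, beside 0.01 for all genes tested. Among tumor mice, the genes higher and lower in EBi3KO than in WT were 10 and 2 of 15 for polyamine metabolism (median 0.695). They were 17 and 8 of 39 for ribosome biogenesis (0.19) and 12 and 2 of 22 for the amino acid response (0.39). They were 15 and 11 of 32 for mTORC1 and 9 and 7 of 25 for other transporters. The synthetases had 6 and 4 of 20 and the Myc partners and antagonists 6 and 8 of 19. All genes had 31.9% and 28.6%. These rest on the WT tumor libraries.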

How the data were processed

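RNA was extracted with RNeasy Plus Mini and libraries were made with TruSeq Stranded mRNA, per the labels' protocols. Quantification used Salmon with mm10, and DESeq2 normalized the counts, per the submitters' processing notes, which give no versions or strand setting. The deposited values are a signal, normalized counts that the authors wrote per gene symbol and library. Divided by the step between a library's values, 100% were whole reads within 0.01, which gave the reads and depths. The minimum mean of 10 over the 8 libraries left 13011 genes. Their log2(value + 1) entered 1 fit of limma 3.58.1 (R 4.3.3) with a mean for each group, a prior variance that follows the mean, and 4 residual and 4.64 prior degrees of freedom. All tests were two-sided, with Benjamini-Hochberg adjustment across the 13011 genes of each comparison and a call at an adjusted p below 0.05. A log2 difference is on the log2(value + 1) scale, and an SE is limma's. The 10 genes, the lists and the markers were chosen with earlier results of these data known. From each list, up to 3 genes with the smallest p in a comparison could be named. Levels per length and the length trends used a single GENCODE M21 transcript of each gene. It was the longest of those tagged as principal or, where none was tagged, the longest of all. GENCODE M21 also gave coordinates. The EBi3KO tumor libraries differed by a chi-square of 2.01 per degree of freedom over genes, against 13.1 to 20.3 in the other pairs, and were kept as 2. The title numbers 7 and 8 recur only in the WT groups, whose same-numbered deviations correlated at -0.256, so they were not taken to pair samples. Alternatives were other pseudocounts (5 and 0.1), filters (none, or a mean of 50), scalings (quantile, TMM), no mean trend, only the compared libraries in the fit, omission of single libraries, a replicate block, averaged EBi3KO tumor libraries and removal of a length and GC trend. Reads recovered were also tested with edgeR 4.0.16 and DESeq2 1.42.0. Added after the data were seen were the coding length trend, the crossed pairing and the omission of the WT tumor libraries. The fits were tested on simulated data.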

Additional observations from a re-analysis of the deposited data

Results flagged for a closer look

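For 7 of the 10 genes the interaction between tumor and genotype, coded as the EBi3KO tumor difference less the WT one, passed limma's adjusted threshold. It was positive for Myc (1.495 on the log2 scale), Odc1 (0.51) and Slc3a2 (0.55), and negative for Slc1a5 (-0.65), Slc7a6 (-0.84), Slc38a1 (-0.88) and Slc38a2 (-0.77). Of all genes tested, 27.5% were called positive and 25.4% negative. Each of the 7 values rests on the WT tumor libraries, and the genotype dependence cannot be told apart from what else sets those libraries apart.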

How the results depend on the processing

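Over the 10 genes, 5 comparisons and all alternatives, 995 of 1080 values kept their direction and side of the threshold, 51 lost a call, 14 gained one and 20 changed sign uncalled. Of the lost and gained calls, 1 and 6 also changed sign. Of the counts, those for tumor in EBi3KO moved most. Against 6 genes and 4242 over all genes tested, they came to 3 and 2375 without the mean trend and to 1 and 733 with the EBi3KO tumor libraries averaged, which leaves that group 1 sample assumed to vary like the others. Omission of single libraries gave 1 to 7 of the 10 and 756 to 5313 of all genes. For EBi3KO against WT without a tumor, 0 genes in all became 21 with DESeq2 and 0 to 5 with single libraries left out. Ncl became -0.98 (transcript length and GC trend removed) and -0.56 (coding length) in WT, 0.64 and 0.34 between genotypes in tumor mice, and 0.68 and 0.35 in the interaction, each past the threshold. Without passing it, Ncl changed sign for tumor in EBi3KO to 0.12 with quantile scaling, and with single libraries left out it ran between -0.185 and 0.045. Nolc1 changed sign with coding length to -0.047 in WT, 0.14 between genotypes in tumor mice and 0.13 in the interaction, and in tumor mice to 0.016 with quantile scaling and 0.0019 with transcript length. In nontumor mice, where 0 of the 10 were called in any alternative, signs changed with quantile scaling for Slc3a2 (0.0027) and Slc38a1 (0.0024), and with the length trends for Ncl (-0.036 and -0.0024). With single libraries left out, signs also changed there, for Myc (-0.493 to 0.049), Odc1 (-0.165 to 0.048), Ncl (-0.069 to 0.161), Nolc1 (-0.00018 to 0.132), Slc3a2 (-0.110 to 0.062), Slc38a1 (-0.109 to 0.073) and Slc38a2 (-0.00023 to 0.364). The cause was not tested. With the title number as a replicate block, 8 of the 10 and 9305 genes were called for tumor in WT, the call on Nolc1 (0.25) being lost, and with the numbers crossed, 9 and 10678. With 2 libraries a group, small differences could be missed.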
